A study of Mus musculus with 11 samples.

Results

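Passenger strands, the arms of microRNA (miR) hairpins that carry a star in the older naming, were measured by PCR in whole aortas of apoE-/- mice. The assay panel held 517 mouse miR assays, of which 110 had names ending in a star. Of these 110, the 88 described here lie outside the imprinted Dlk1-Dio3 region: 13 were left out for a Dlk1-Dio3 number, 4 for a number of the repeat-derived miRs, 1 for miR-483, and 4 (the stars of miR-21, miR-33, miR-145 and miR-34c) by name. A guide-strand assay from the same miR was present for 83 of the 88, by the same name for 75 and by the name without its gene copy number for 8. No guide assay was paired with miR-125b*, miR-196a*, miR-199b*, miR-463* and miR-712*.

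A miR gene is transcribed as a hairpin, which the enzymes Drosha and Dicer cut down to a short duplex of 2 strands. One of them, the guide, is usually kept by an Argonaute protein and directs it to target mRNAs through the seed near the 5′ end, while the other, the passenger, is usually discarded. Where 1 gene makes both strands, they come from the same precursor. Some guides are made by several gene copies whose passenger strands differ, and there the passenger level relative to the guide also depends on how much each copy is transcribed. The star marked the strand that was rarer when the miR was named, and the newer names give the arm (5p or 3p) instead.

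All 11 mice were female and lacked apolipoprotein E, which makes mice prone to atherosclerosis, so every group, controls included, carried the apoE-/- genotype. The 4 control mice ate a regular diet and their aortas were labelled free of atherosclerosis. The other mice ate a high fat diet with 21% crude fat, 19.5% casein and 0.15% cholesterol, 4 of them for 3 months and 3 of them for 10 months, and their aortas were labelled atherosclerotic. An age of 6 to 8 weeks was given for all groups, without a statement of whether it is the age at the start of the diet or at collection, and the time for which controls were kept was not given, so age and time on the diet cannot be told apart. For the 10-month mice the treatment field names 3 months of diet and the title 10 months, and the title was followed. Each sample was 1 mouse, listed as a biological replicate.

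The mature sequences below belong to strands described in the results, and are RefSeq entries of build GRCm38.p6 with the seed, bases 2 to 8, in capitals. No test used the sequences. A RefSeq entry was matched to 64 of the 88 passenger strands through the usual correspondence of star names to arms, since the assay names came without probe sequences. The let-7 family comes first, since let-7d*, let-7i* and the wells of let-7b* and let-7f* are described in most detail below, and 3 of its passenger strands share the seed UAUACAA.
let-7a*: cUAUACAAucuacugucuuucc
let-7b*: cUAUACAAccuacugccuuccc
let-7f*: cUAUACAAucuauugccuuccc
let-7d*: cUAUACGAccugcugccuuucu
let-7i*: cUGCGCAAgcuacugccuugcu
let-7d guide: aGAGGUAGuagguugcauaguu

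Both arms of let-7d sit in 1 hairpin of 103 bases on the minus strand of chromosome 13. The hairpin is shown because the guide in its 5′ arm and the passenger in its 3′ arm, both in capitals, gave different values in the aorta.
let-7d hairpin: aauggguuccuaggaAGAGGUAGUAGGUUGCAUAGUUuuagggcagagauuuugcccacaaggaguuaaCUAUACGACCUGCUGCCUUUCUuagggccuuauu

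The next set is described below by mouse for its level or its difference from the guide, although none of its passenger strands passed an adjusted test. The 2 gene copies of miR-24 give the same guide but different passenger strands, which share the seed UGCCUAC. They are alike from the first base to gcuga and again in the final cagu. miR-24-1* has 23 bases and miR-24-2* 22, so counting positions from the first base without a gap gives 5 differences. Whether each assay read only its own strand was not tested.
miR-24-1*: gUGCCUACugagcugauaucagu
miR-24-2*: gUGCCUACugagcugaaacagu
miR-31*: uGCUAUGCcaacauauugccauc
miR-193*: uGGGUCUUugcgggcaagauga
miR-193 guide: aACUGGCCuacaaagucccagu
miR-16*: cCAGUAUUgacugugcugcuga
miR-879*: gCUUAUGGcuucaagcuuucgg

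The last set had the highest levels, or levels above those of the guide. The passenger strands of miR-30a and miR-30e share the seed UUUCAGU and differ at 1 of 22 positions, as do their guides.
miR-30a*: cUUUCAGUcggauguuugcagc
miR-30e*: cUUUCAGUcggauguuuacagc
miR-28*: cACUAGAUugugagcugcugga
miR-7a*: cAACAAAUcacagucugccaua
miR-877*: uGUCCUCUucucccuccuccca
miR-674*: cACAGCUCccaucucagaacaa
miR-183*: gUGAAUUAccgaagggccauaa
miR-872*: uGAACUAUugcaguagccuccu
The 64 matched passenger strands had 57 different seeds. Besides the groups above, the seed was shared by miR-17* and miR-20b*, by miR-200a* and miR-200b*, and by miR-30c-1* and miR-30c-2*.

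PCR reports the cycle at which a product crosses a threshold, so a later cycle means less template, and 1 cycle stands for a factor of about 2. Levels below are minus the cycle number on the log2 scale, taken relative to the average of the same mouse's 285 always-detected miRs. A well at 35 cycles or later, or at 40, the value given to wells without amplification, was counted as not detected and entered at 35 cycles. That mean came at 23.2 to 26.9 cycles, latest in replicate 2 at 10 months. The smooth muscle miRs miR-145 (10.98 to 14.09 cycles) and miR-143 (15.3 to 19.6 cycles) and the endothelial miR-126-3p (14.0 to 16.9 cycles) were detected in all 11 mice. Of the neural miRs, miR-124 was detected in 4 mice and miR-9 in all 11, at 22.5 to 27.1 cycles. The striated muscle, liver and epithelial miRs examined were also detected in all 11 mice. In RNA from a whole vessel, fewer cells of a type and less of a miR per cell cannot be told apart.

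All 88 passenger strands lay in the second of the 2 assay blocks, whereas 79 of the 83 guides lay in the first. A shift between the blocks of a mouse therefore enters its passenger levels and every passenger minus guide difference across blocks. The 4 control assays present in both blocks (MammU6, U87, snoRNA135 and snoRNA202) came on average 0.80 and 1.21 cycles later in the second block in replicates 1 and 2 at 3 months. In the other 9 mice they ranged from 0.99 cycles earlier to 0.48 cycles later. Group means of this shift were -0.30 ± 0.48 cycles in controls, 0.44 ± 0.67 at 3 months and -0.05 ± 0.47 at 10 months (SD, n = 4, 4 and 3). For many of the strands and pairs described across blocks, though not for all, values with each block centred by itself are given beside the result.

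Of the 88 passenger strands, 54 were detected in all 11 aortas, 22 in some and 12 in none. The number detected per mouse ran from 57 to 69, with group means of 65.5 ± 3.87 in controls, 62.2 ± 2.22 at 3 months and 63.7 ± 5.86 at 10 months (SD, n = 4, 4 and 3), and the ranges of the groups overlapped. The 12 not detected were miR-10a*, miR-124*, miR-293*, miR-294*, miR-302a*, miR-302b*, miR-302c*, miR-374*, miR-463*, miR-488*, miR-708* and miR-712*. They include all 5 passenger strands of the embryonic stem cell miRs on the panel (the miR-290 and miR-302 clusters).

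A passenger strand could be missing beside an abundant or a scarce guide. miR-133a, a guide best known from cardiac and skeletal muscle, had a mean level of 7.22, and miR-133a* was detected in 4 of 11 aortas at 31.1 to 33.7 cycles. miR-150, a lymphocyte miR, had a mean level of 5.88, and miR-150* was detected in 1 control aorta only, at 31.0 cycles. The reverse held for miR-470, an X-linked testis miR: its guide was detected in no aorta and miR-470* in 5, namely 3 controls, 2 at 3 months and 0 at 10 months, at 28.7 to 32.1 cycles.

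The most abundant passenger strands were those of miR-30a and miR-30e. The miR-30a* level was 5.95, 6.33, 5.65 and 5.52 in the controls, 5.56, 5.39, 6.08 and 6.17 at 3 months, and 6.45, 6.05 and 6.19 at 10 months. The miR-30e* level was 5.61, 5.90, 5.34 and 5.14 in the controls, 5.21, 5.04, 5.67 and 5.74 at 3 months, and 5.93, 5.60 and 5.63 at 10 months. Both ranked high in every mouse and their groups overlapped, with mean levels over 11 mice of 5.94 and 5.53. Next came miR-24-2* at 2.39, miR-28* at 1.74, miR-31* at 1.64 and miR-7a* at 1.63. These levels come from different assays whose efficiency was not checked, so the order between assays is not a strict order of abundance. The sequences of miR-30a* and miR-30e* differ at 1 of 22 positions, and whether each assay read only its own strand was not tested. The lowest mean level among strands detected in every mouse was -7.32, for miR-218-2*.

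Between mice of 1 group, passenger strands varied about as much as other miRs. The median within-group SD was 0.60 for the 54 passenger strands detected in every mouse, 0.52 for the 65 guides and 0.56 for the 285 miRs detected in every mouse. The 34 second-block miRs of that set that are not among the 88 had a median of 0.75. The smallest SD among the passenger strands was that of miR-26b*, 0.26, and the largest that of miR-135a*, 2.19.

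In 48 pairs both strands were detected in every mouse, and in these the passenger strand was usually far below its guide. The median of the mean passenger minus guide difference was -3.99 log2 units, and the guide was higher in all 11 mice in 35 of the 48 pairs. The lowest difference was that of miR-24-1*, at -13.73, whereas miR-24-2*, set against the same guide assay, lay at -7.94 ± 0.67 (SD, n = 11), between -8.96 and -6.77. These offsets compare different assays, mostly of different blocks, and only 3 of the 48 pairs lay within 1 block. A constant offset between assays cancels in differences between groups, whereas the size of such a difference still takes 1 cycle as a doubling.

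In 6 pairs the strand named passenger was higher than its guide in all 11 mice. The miR-7a* minus miR-7a difference was 7.33, 8.40, 7.79 and 7.60 in the controls, 6.13, 7.05, 9.31 and 9.60 at 3 months, and 8.38, 9.93 and 6.76 at 10 months. The passenger strand of miR-7, a miR best known from neurons and endocrine cells, thus exceeded its guide in every aorta, with overlapping groups and a mean of 8.03. The miR-877* minus miR-877 difference was 4.29, 5.52, 6.29 and 5.20 in the controls, 6.28, 6.56, 3.84 and 4.84 at 3 months, and 5.04, 4.05 and 4.04 at 10 months. miR-877 is cut from a short intron without Drosha (a mirtron), and both its assays lay in the same block, so the mean of 5.09 carries no block shift.

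The other 4 such pairs had smaller mean differences: 2.35 for miR-674*, 1.83 for miR-183*, 1.74 for miR-193* and 1.70 for miR-872*. The passenger strands of miR-30e and miR-30a were also higher on average, by 0.60 and 0.35, in 10 and 8 of 11 mice. The miR-30e* minus miR-30e difference was 1.53, 1.34, 0.86 and 0.36 in the controls, 0.09, -0.33, 0.70 and 0.49 at 3 months, and 0.39, 0.45 and 0.76 at 10 months, so the groups overlapped. The only negative value of miR-30e* came from replicate 2 at 3 months, the mouse with the largest shift between blocks, and the part of that shift was not tested.

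**Figure D1:**
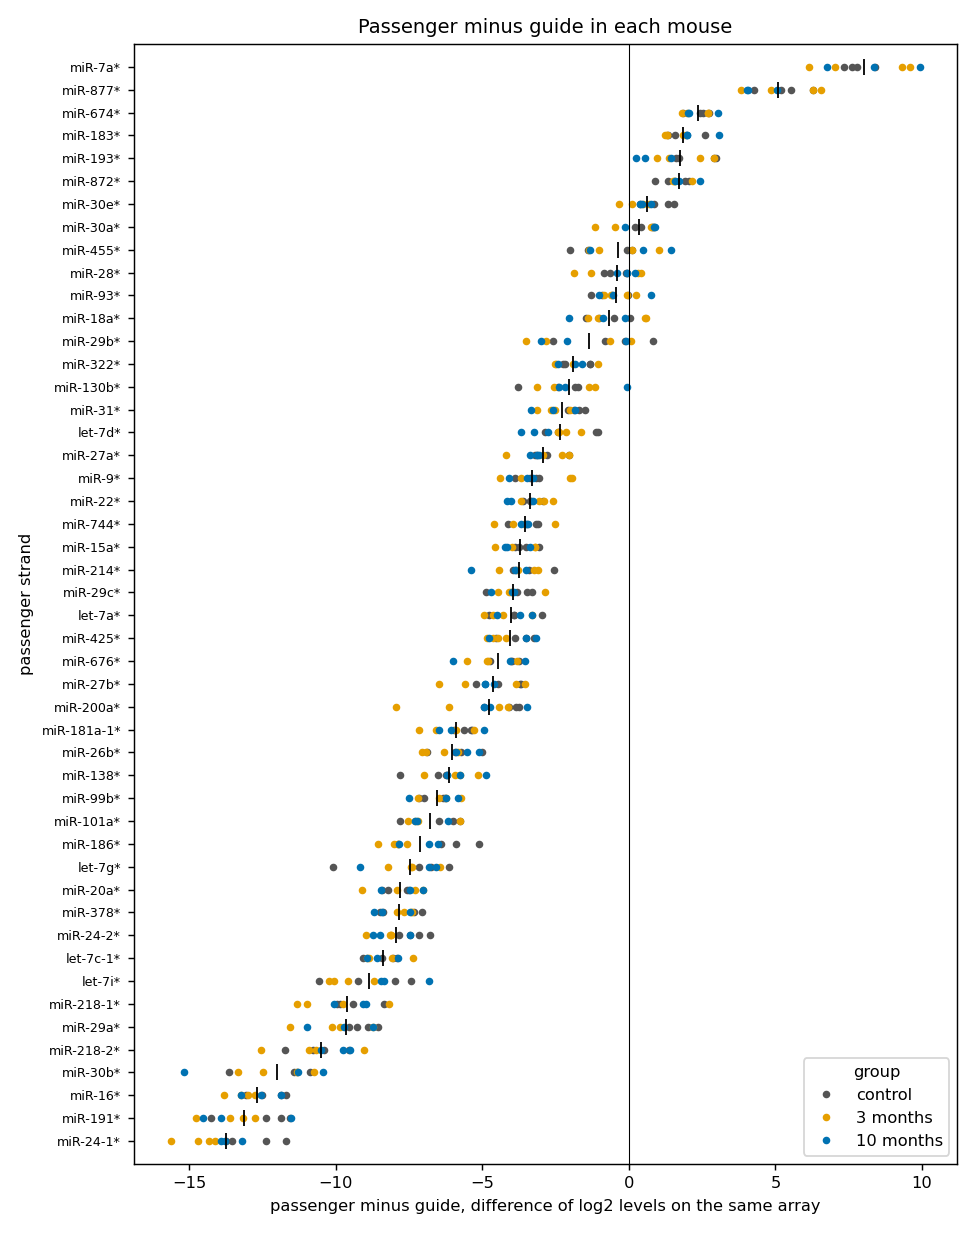
Difference of log2 levels, passenger minus guide, on the same array (x axis) for the 48 pairs with both strands detected in all 11 mice (y axis), 1 point per mouse coloured by group, with a black tick at the mean over mice. Most points lie left of 0, and those of miR-7a*, miR-877*, miR-674*, miR-183*, miR-193* and miR-872* lie right of it in every mouse.

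Of the 88 passenger strands, 66 were detected in at least 3 mice of at least 1 group and entered the tests. Of these, 5 entered through 1 group only: let-7b*, let-7f*, miR-148a* and miR-470* through the controls and miR-196a* through the 3-month mice. The 22 that did not pass were the 12 never detected and 10 seen in a few mice. All 3 groups were fitted together with limma over 353 miRs, with Benjamini-Hochberg adjustment over all of them. The passenger minus guide difference was fitted in the same way over the 71 pairs on the panel that could be tested, 62 of them with a passenger strand from the 88.

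The first comparison set 3 months of high fat diet against the regular diet, and no passenger strand passed the test. In limma, 0 of 66 had an adjusted p under 0.05, as among all tested miRs (0% called), and the smallest adjusted p of a passenger strand was 0.441. At an unadjusted p under 0.05 there were 5 of 66, all lower at 3 months, against 8.5% of all tested miRs in either direction and 5.67% lower. The 5 include let-7b* and miR-200b*, which were not detected in any mouse at 3 months and were entered there at the limit. Of these, let-7b* entered the test only through the controls. In 3 strands (miR-106b*, miR-16* and miR-31*) every mouse at 3 months lay below every control, against 5.38% of all tested miRs without overlap in either direction and 2.55% lower. The median log2 difference was -0.21 over the 66 and -0.05 over all tested miRs, and 69.7% of the 66 differences were negative, against 53% over all tested miRs. With each block centred by itself the median of the 66 was -0.07 and that of all tested miRs -0.04, with 59.1% and 54.1% of differences negative.

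miR-31 targets regulators of cell growth and adhesion and is expressed in vascular smooth muscle. The miR-31* level was 2.49, 2.30, 2.32 and 2.18 in the controls, 1.09, 0.71, 1.93 and 1.94 at 3 months, and 1.26, 0.53 and 1.28 at 10 months. The controls, at 2.32 ± 0.13 (SD, n = 4), lay above every mouse on the high fat diet, and at 3 months the lowest 2 values came from the 2 mice with the largest shift between blocks. The log2 difference at 3 months was -0.91 (SE 0.34), or 1.87-fold lower, with an adjusted p of 0.441 in limma. It was -0.76 with each block centred by itself (adjusted p = 0.241 in limma). The miR-31 guide at 3 months overlapped the controls, with a difference of -0.12 (SE 0.27).

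miR-16 is a tumour-suppressor miR that restrains the cell cycle. The miR-16* level was -4.37, -4.34, -4.54 and -4.75 in the controls, -5.20, -5.37, -5.32 and -4.95 at 3 months, and -4.97, -5.26 and -4.27 at 10 months. The 3-month mice lay below all controls, by -0.71 (SE 0.27), with an adjusted p of 0.441 in limma, and the 10-month mice overlapped both groups. With each block centred by itself the difference was -0.57 (adjusted p = 0.513 in limma). The third strand without overlap, miR-106b* from the intronic cluster in Mcm7, had levels of -2.02 ± 0.58 in controls and -4.02 ± 1.01 at 3 months (SD, n = 4 each). It did not amplify in replicate 2 at 10 months.

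The passenger strands of the miR-23, miR-27 and miR-24 clusters had 3 of 4 differences below 0 at 3 months. The miR-24-1* level was -1.81, -1.80, -3.80 and -3.60 in the controls, -4.22, -4.79, -3.76 and -4.03 at 3 months, and -3.15, -2.64 and -3.86 at 10 months. The controls had 2 high and 2 low values, and the low ones overlapped the 3-month mice (difference -1.45, SE 0.53, adjusted p = 0.441 in limma). Centring each block by itself gave -1.31 (adjusted p = 0.504 in limma). miR-24-2*, made from the other gene copy, differed by -0.63 (SE 0.28), and miR-27a* and miR-27b* by 0.05 (SE 0.35) and -0.59 (SE 0.42). The shared miR-24 guide, one of the highest miRs measured, differed by 0.39 (SE 0.31).

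Relative to the guide, no pair passed the test at 3 months either. In limma, 0 of 62 differences had an adjusted p under 0.05 (0% of the 71 pairs), and the smallest adjusted p was 0.365. Of the 62, 6 had an unadjusted p under 0.05, against 9.86% of the 71. The 6 include the pairs of let-7b* and miR-200b*, whose passenger strands were at the entered limit in every 3-month mouse. They also include miR-186*, which changed by -1.68 (SE 0.59), and miR-135a*, the only one that was higher, at 3.26 (SE 1.31). Each had an adjusted p of 0.365 in limma. Centring each block by itself gave -1.47 and 3.47. The miR-135a guide differed by -2.02 (SE 0.49, adjusted p = 0.320 in limma). The difference did not overlap between groups in 2 pairs, against 2.82% of the 71, and both were passenger strands of miR-24. The miR-24-1* minus miR-24 difference was -11.71, -12.38, -13.55 and -13.75 in the controls and -14.32, -15.62, -14.13 and -14.69 at 3 months, a change of -1.84 (SE 0.55, adjusted p = 0.365 in limma). The miR-24-2* minus miR-24 difference was -6.77, -7.48, -7.16 and -7.86 in the controls and -8.16, -8.96, -8.12 and -8.12 at 3 months, a change of -1.02 (SE 0.43, adjusted p = 0.365 in limma). Both pairs cross the blocks and share their guide assay. The changes were -1.64 and -0.82 with each block centred by itself. Taking off each mouse's shift of the 4 shared control assays brought them to -1.10 and -0.29, a correction chosen after seeing the data. The median change over the 62 pairs was -0.25 without that correction and 0.33 with it, so the sign of the median at 3 months depended on how the blocks were aligned.

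The second comparison set 10 months of high fat diet against the regular diet. In limma, 0 of 66 passenger strands had an adjusted p under 0.05, against 4.53% of all 353 tested miRs, and the smallest adjusted p was 0.0617. At an unadjusted p under 0.05 there were 3 of 66, against 17% of all tested miRs: let-7d*, miR-31* and miR-879*. The groups did not overlap in 4 strands (the same 3 and miR-20a*), or 6.06% of the 66, against 15.9% of all tested miRs. The median log2 difference was -0.12 over the 66 and 0.00 over all tested miRs. Of the 66 differences, 26 were positive and 40 negative (60.6%), against 49.6% negative over all tested miRs. With each block centred by itself 59.1% and 49.6% were negative.

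let-7 miRs restrain growth and promote differentiation, and the guide strands of the family share their seed. let-7d* crossed the threshold at 22.81, 23.21, 22.91 and 23.15 cycles in the controls, 22.70, 23.05, 23.11 and 23.89 at 3 months, and 24.90, 26.96 and 23.97 at 10 months. The corresponding levels were 1.19, 2.09, 0.36 and 0.98 in the controls, 1.06, 0.75, 1.83 and 0.53 at 3 months, and -1.40, -0.04 and -0.80 at 10 months. All 3 mice at 10 months lay below all 8 others, and the control and 3-month mice overlapped. The log2 difference from control was -1.90 (SE 0.49), or 3.73-fold lower, with an adjusted p of 0.0617 in limma. Centring each block by itself gave -1.89 (adjusted p = 0.0791 in limma). Over the alternative settings and with each mouse left out, the difference ranged from -2.26 to -1.57 and the adjusted p from 0.0296 to 0.557 in limma.

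The let-7d guide, cut from the same hairpin, did not separate in this way. Its level was 2.30, 3.16, 2.76 and 3.84 in the controls, 2.70, 3.14, 3.98 and 2.96 at 3 months, and 2.28, 2.72 and 2.43 at 10 months. The 10-month values lay within or just below the range of the controls, with a difference of -0.54 (SE 0.42, adjusted p = 0.648 in limma). The let-7d* minus let-7d difference was -1.11, -1.07, -2.41 and -2.86 in the controls, -1.64, -2.39, -2.15 and -2.43 at 3 months, and -3.68, -2.76 and -3.23 at 10 months. Replicate 2 at 10 months overlapped the lowest control, and the change from control was -1.36 (SE 0.53, adjusted p = 0.668 in limma). Centring each block by itself gave a change of -1.35 (adjusted p = 0.748 in limma). The other 4 let-7 passenger strands detected in every mouse differed at 10 months by -0.51 (let-7a*, SE 0.52), -0.15 (let-7c-1*, SE 0.48), -0.13 (let-7g*, SE 0.84) and 0.97 (let-7i*, SE 0.50).

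miR-31* at 10 months lay below all controls, by -1.30 (SE 0.37), or 2.46-fold, with an adjusted p of 0.0738 in limma. With each block centred by itself it passed, at -1.28 and an adjusted p of 0.00869 in limma, and without replicate 2 at 10 months, its lowest value, it was -1.05 with an adjusted p of 0.232. The miR-31 guide at 10 months was 3.86, 3.85 and 3.14 against 3.98, 4.17, 4.02 and 4.27 in the controls. It also lay below all controls, by a smaller -0.49 (SE 0.29, adjusted p = 0.525 in limma). The miR-31* minus miR-31 change was -0.80 (SE 0.45, adjusted p = 0.877 in limma).

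miR-879* was a late signal, at 28.3 to 33.7 cycles. Its level was -7.44, -8.38, -6.01 and -6.61 in the controls, -5.73, -6.18, -7.02 and -6.14 at 3 months, and -5.93, -4.77 and -5.08 at 10 months. The 10-month mice lay above all controls, with the nearest values -5.93 and -6.01, and the 3-month mice overlapped both groups. The difference was 1.85 (SE 0.57), or 3.61-fold higher, with an adjusted p of 0.0961 in limma. Without replicate 2 at 10 months it was 1.60 with an adjusted p of 0.274. Centring each block by itself, with all mice, gave 1.86 (adjusted p = 0.135 in limma). Its guide was detected in 5 of 11 mice. The fourth strand without overlap, miR-20a* of the miR-17 cluster, differed by only 0.18 (SE 0.33): its levels were -3.54, -3.58, -3.66 and -3.89 in the controls and -3.49, -3.52 and -3.44 at 10 months.

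**Figure D2:**
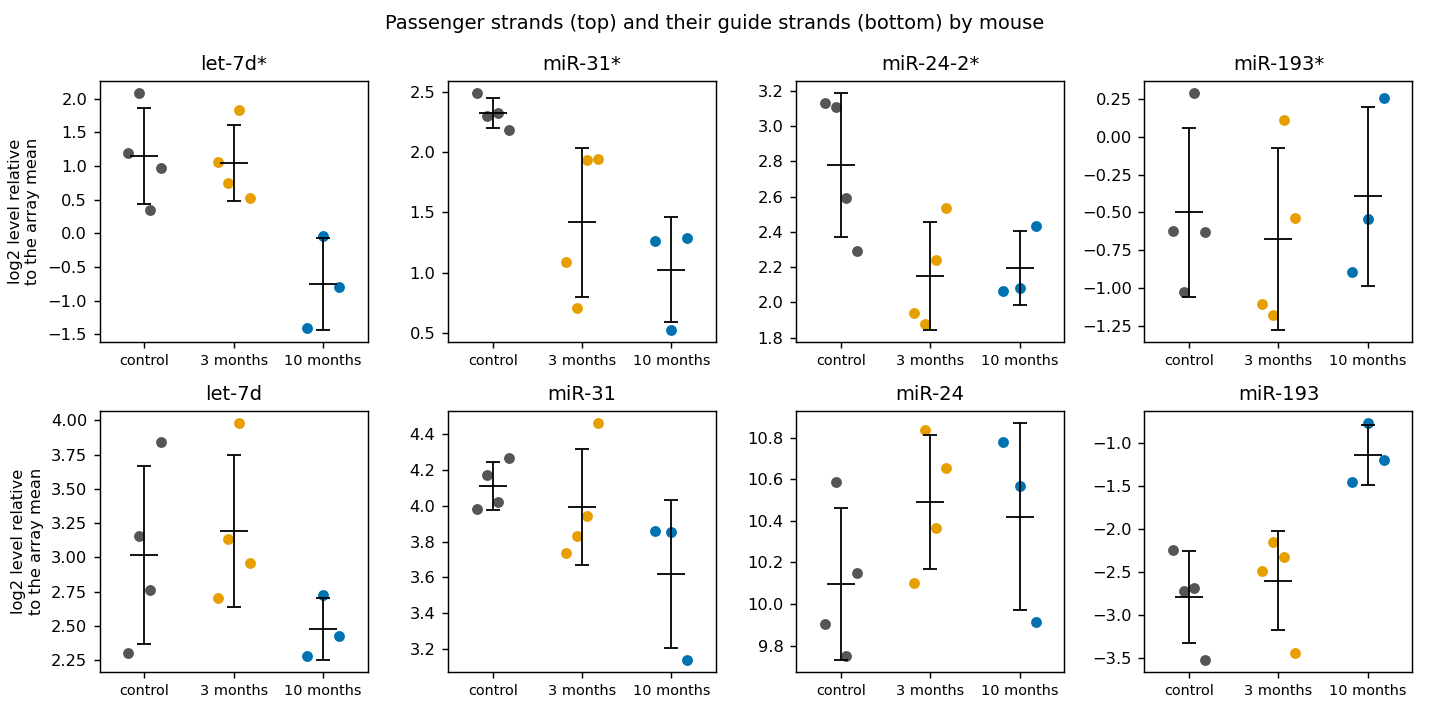
Log2 level relative to the array mean (y axis) of let-7d*, miR-31*, miR-24-2* and miR-193* (top) and of their guides (bottom) in each mouse, by diet group (x axis, control n = 4, 3 months n = 4, 10 months n = 3). Bars are the mean and 1 SD, and each panel has its own axis: let-7d* at 10 months lies at -1.40 to -0.04, below all other mice, while its guide overlaps the other groups.

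No pair passed the test at 10 months: in limma, 0 of 62 had an adjusted p under 0.05 (0% of the 71 pairs), 2 of the 62 had an unadjusted p under 0.05, against a share of 4.23% among the 71, and 3 of the 62 did not overlap, against 7.04% among the 71. Those 3 were miR-193*, miR-330* and miR-138*. miR-193 lies beside miR-365 in the genome. The miR-193* minus miR-193 difference was 1.62, 1.70, 2.98 and 2.90 in the controls, 1.38, 0.97, 2.44 and 2.91 at 3 months, and 0.56, 0.23 and 1.45 at 10 months. The 10-month mice lay below all controls, and the change was -1.55 (SE 0.61, adjusted p = 0.668 in limma). It was -1.54 with each block centred by itself (adjusted p = 0.140 in limma).

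In that pair the guide passed the test and the passenger strand did not. The miR-193 guide was -2.24, -2.73, -2.69 and -3.53 in the controls and -1.45, -0.77 and -1.19 at 10 months, and rose by 1.66 (SE 0.41), or 3.16-fold, with an adjusted p of 0.0489 in limma. miR-193* was -0.63, -1.03, 0.29 and -0.63 in the controls and -0.90, -0.54 and 0.25 at 10 months. Its groups overlapped, and the difference was 0.10 (SE 0.45). miR-138* minus its guide changed by 1.09 (SE 0.58), and miR-330* minus its guide by -2.98 (SE 2.27), where the miR-330 guide did not amplify in 1 control and 2 mice at 3 months.

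The third comparison set 10 against 3 months of high fat diet. In limma, 0 of 66 passenger strands had an adjusted p under 0.05 (0% of all tested miRs), and the smallest adjusted p was 0.161. At an unadjusted p under 0.05 there were 6 of 66 (9.09%), 5 higher and 1 lower at 10 months, against 13% of all tested miRs (6.23% higher and 6.8% lower). Without overlap there were 5 (let-7d*, let-7b*, let-7i*, miR-146b* and miR-200b*), or 7.58%, against 12.2%. Both sets include let-7b* and miR-200b*, each higher at 10 months. These strands were not detected in any mouse at 3 months and were entered there at the limit, and let-7b* entered the test only through the controls. The median log2 difference was 0.16 over the 66 and 0.06 over all tested miRs. Of the 66 differences, 43 were positive and 23 negative (34.8%), against 45% negative over all tested miRs. With each block centred by itself the medians were 0.03 and 0.08, with 48.5% and 45% of differences negative. This comparison shares its mice with the other 2.

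let-7d* was lower at 10 than at 3 months by 1.79 (log2 difference -1.79, SE 0.49, adjusted p = 0.161 in limma), while let-7i* had the opposite direction. The let-7i* level was -5.12, -4.09, -5.29 and -6.50 in the controls, -6.13, -6.02, -5.25 and -5.91 at 3 months, and -4.54, -4.00 and -4.30 at 10 months. The 10-month mice lay above all 3-month mice and overlapped the controls, and the difference from 3 months was 1.55 (SE 0.50, adjusted p = 0.216 in limma). Centring each block by itself gave 1.42 (adjusted p = 0.297 in limma). The let-7i guide differed by -0.23 (SE 0.41).

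miR-146b is induced by inflammatory NF-kB signalling. The miR-146b* level was -3.24, -4.37 and -3.74 at 10 months against -5.78, -6.18 and -5.69 in 3 of the mice at 3 months, and the fourth well did not amplify. In the controls it was -4.27, -4.67 and -5.07, with 1 well that did not amplify. The difference between 10 and 3 months was 3.28 (SE 1.65, adjusted p = 0.450 in limma) and includes the value given to the undetected well. Against control, the miR-146b guide differed by 1.01 (SE 0.48) at 3 months and by 1.86 (SE 0.52, adjusted p = 0.0738 in limma) at 10 months. The miR-146b* minus miR-146b change between 10 and 3 months was 2.43 (SE 1.72, adjusted p = 0.676 in limma). The summed level of 3 leukocyte miRs (miR-142-3p, miR-223 and miR-150) ran from 6.04 to 7.16 in controls, 6.15 to 7.02 at 3 months and 6.13 to 8.09 at 10 months. By itself miR-142-3p ran from 2.97 to 4.18 in controls, 1.65 to 2.66 at 3 months and 2.90 to 3.99 at 10 months. The ranges of miR-223 and of miR-150 overlapped between all groups. The part of the leukocyte miRs in the miR-146b* difference was not tested.

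miR-200b belongs to the miR-200 family, which keeps epithelial cells epithelial. miR-200b* was near the limit of detection: it crossed the threshold at 32.3, 33.8 and 30.4 cycles in 3 controls, in no mouse at 3 months, and at 32.3, 34.7 and 30.6 cycles at 10 months. The fitted difference between 10 and 3 months, 2.80 (SE 0.76, adjusted p = 0.161 in limma), depends on the limit of 35 cycles. The related miR-200a* was detected in all 11 mice, with levels of -6.09 ± 0.39 in controls, -7.72 ± 1.74 at 3 months and -5.86 ± 0.62 at 10 months (SD, n = 4, 4 and 3). Its low values at 3 months, -9.15 and -9.28, came from replicates 1 and 2, the mice with the largest shift between blocks, and the other 2 were -6.49 and -5.96. The miR-200a* difference at 3 months against control was -1.63 (SE 0.74), and -1.49 with each block centred by itself (adjusted p = 0.460 in limma). Between 10 and 3 months, centring each block by itself gave 1.73 (adjusted p = 0.299 in limma). The part of the shift in these differences was not tested. The miR-200b guide was detected in all 11 mice at 24.2 to 30.9 cycles.

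let-7b* and let-7f*, which share a seed, stood apart by wells that either amplified early or not at all. let-7b* crossed the threshold at 24.4, 24.6 and 23.4 cycles in 3 controls and at 24.8 and 22.9 in 2 mice at 10 months, and was at 40 in control replicate 4, in all 4 mice at 3 months and in replicate 2 at 10 months. let-7f* amplified in 6 mice at 23.9 to 26.3 cycles and was at 40 in 5 of the 6 mice in which let-7b* was at 40. The exception was replicate 1 at 3 months. let-7a*, with the same seed, was detected in every mouse, as was the let-7b guide. The let-7f guide was at 40 in control replicate 2 and came at 20.4 to 25.9 cycles in the other 10 mice.

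The fitted differences of let-7b*, -8.09 (SE 2.54) at 3 months against control and 7.73 (SE 2.75) at 10 against 3 months, therefore rest on the value given to wells at 40. let-7b* also entered the test only through the controls, where 3 of 4 wells amplified, so these values support no difference. Their adjusted p-values were 0.441 and 0.281 in limma. Its lack of overlap between 10 and 3 months rests on the same value, since replicate 2 at 10 months, the array with the latest mean cycle, did not amplify either. Wells at 40 in an assay whose detected wells all came before 30 cycles occurred in 6 of the 88 passenger strands (6.82%) and in 38 of all 517 miRs (7.35%). The 6 were let-7b*, let-7f*, miR-106b*, miR-10b*, miR-15b* and miR-30c-1*. What produced these wells was not tested.

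**Figure D3:**
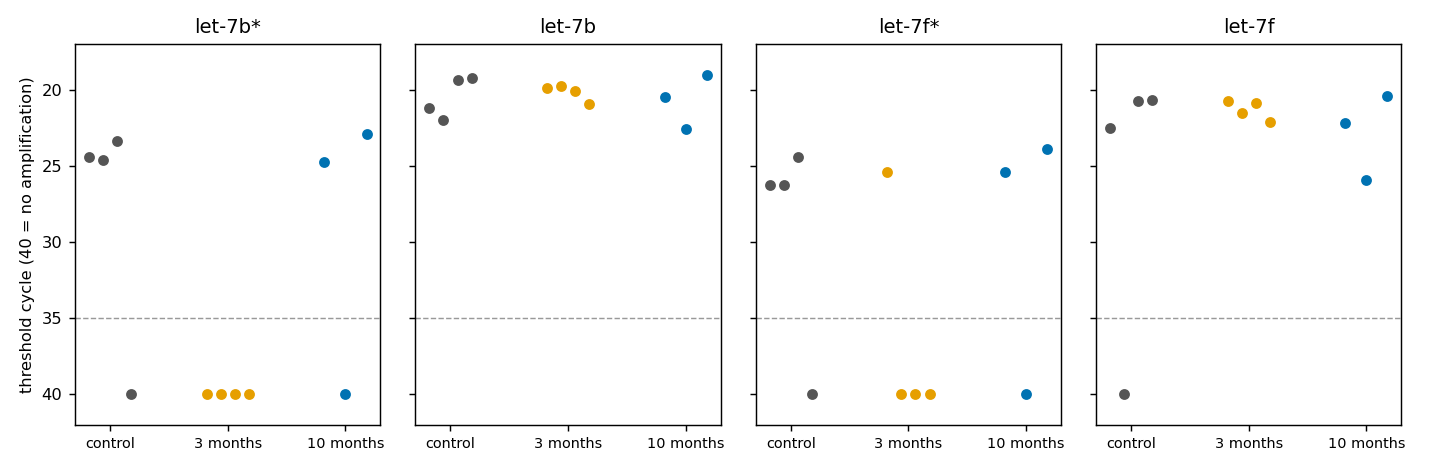
Threshold cycle (y axis, inverted, so that more template is higher) of let-7b*, let-7f* and their guides in each mouse, by diet group (x axis). Points at 40 are wells without amplification and the dashed line is the 35-cycle limit: let-7b* was at 40 in all 4 mice at 3 months, while let-7b was detected in every mouse.

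Between 10 and 3 months 0 of 62 pairs passed the test in limma (0% of the 71 pairs), with a smallest adjusted p of 0.213, and 3 of the 62 had an unadjusted p under 0.05, against a share of 7.04% among the 71. The difference did not overlap in 6 pairs (9.68% of the 62), against 9.86% of the 71: let-7b*, let-7d*, let-7i*, miR-183*, miR-200b* and miR-24-1*. Both the 3 and the 6 include let-7b* and miR-200b*, which were at the entered limit in every 3-month mouse. The let-7d* minus let-7d change was -1.07 (SE 0.53), that of let-7i* 1.78 (SE 0.78), that of miR-183* 0.92 (SE 0.46) and that of miR-24-1* 1.05 (SE 0.59), each with an adjusted p of 0.564 in limma. These changes were -1.26, 1.59, 0.74 and 0.86 with each block centred by itself.

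Within a comparison, the 2 strands of a pair differed in the same direction in 24 to 28 of 48 pairs. These are the pairs with both strands detected in every mouse, and the log2 differences had the same sign in 24 at 3 months against control, in 24 at 10 months against control and in 28 between 10 and 3 months. The correlation across pairs was 0.15, 0.23 and 0.38 (Pearson) and 0.12, 0.14 and 0.28 (Spearman). This is a description across miRs that share arrays, and guide and passenger assays lie mostly in different blocks. At 3 months 20 of the 48 had a lower passenger and a higher guide and 4 the opposite, with medians of -0.18 for the passenger strands and 0.14 for the guides. Between 10 and 3 months the same counts were 5 and 15. The mean shift of the shared control assays between blocks was 0.44 cycles at 3 months and -0.30 in controls, in the direction of lower passenger levels at 3 months, and its part in these counts was not tested.

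**Figure D4:**
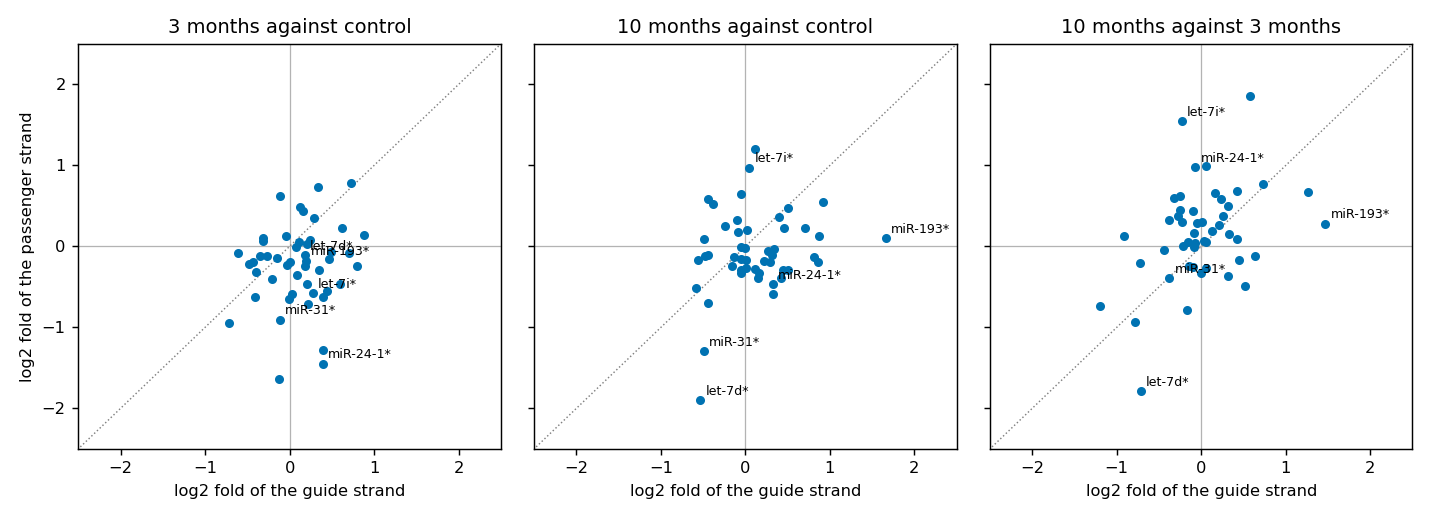
Log2 difference of the passenger strand (y axis) against that of its guide (x axis) in each of the 3 comparisons, 1 point for each of the 48 pairs detected in all mice. The dotted line marks equal differences; let-7d* and miR-31* lie low in the comparison of 10 months with control, and miR-193* lies far to the right, with a guide difference of 1.66 and a passenger difference of 0.10.

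By family, no passenger strand passed the adjusted test in any of the 3 comparisons. All 3 tested strands of the miR-29 family, whose guides repress collagen and other matrix genes, had differences below 0 at 3 months (median -0.24), and miR-29c*, the highest of them, differed by -0.15 (SE 0.36) there and -0.06 (SE 0.38) at 10 months. Of the 5 tested strands of the miR-15 and miR-16 family, 4 were below 0 at 3 months and 4 at 10 months (medians -0.59 and -0.17). Both mesenchymal strands, miR-199b* and miR-214*, were below 0 against control at both times (medians -0.33 and -0.50). miR-214*, from a miR of fibroblasts and vascular cells, differed by -0.39 (SE 0.38) at 10 months.

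The 5 tested strands of the miR-17 cluster and its paralogs, which promote the cell cycle, split into 2 above and 3 below 0 against control at both times, and miR-93*, the highest of them, differed by 0.07 (SE 0.29) at 3 months and 0.33 (SE 0.32) at 10 months. In the miR-99, miR-100 and miR-125 family, miR-125b* differed by 0.19 (SE 0.34) and 0.19 (SE 0.37). The steadiest strands included miR-674*, with differences of -0.00 (SE 0.27) and -0.02 (SE 0.29) against control. miR-10b*, from a Hox gene cluster, was undetected in 4 mice spread over all 3 groups. Over all tested miRs, 53% of differences against control were below 0 at 3 months and 49.6% at 10 months, with medians of -0.05 and 0.00. With each block centred by itself the same numbers of strands of the miR-29, the miR-15 and miR-16 and the mesenchymal families were below 0 at 3 months, with medians of -0.10, -0.44 and -0.18.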

How the data were processed

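Total RNA of the whole aorta was extracted with the mirVana kit, and the RNA integrity number exceeded 8, per the labels. The authors deposited threshold cycles of 11 mice, whose scale is log2 with later cycles standing for less template. They also deposited a normalized table on the same log2 scale, which equals the cycle minus the mean of snoRNA202 and snoRNA429 for all 517 miRs (largest deviation 5.0e-05), as found by comparing the tables. Instrument and software: not given in the sources used here. No table gives a depth, and the number of mice limits the precision.

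Wells at 35 cycles or later were set to 35. The mean of the 285 miRs detected in every mouse (197 and 88 in the blocks) was then subtracted within each array. Levels of 353 miRs, and passenger minus guide differences of 71 pairs, were fitted in limma 3.58.1 (lmFit, then eBayes; R 4.3.3), all 3 groups together. Tests are two-sided with Benjamini-Hochberg adjustment at 0.05. The fit was also run on simulated levels with independent noise. These held no shift between blocks and no wells set to the limit, so that run cannot show how the fit handles either. Fold values take 1 cycle as a doubling, and assay efficiency was not checked.

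The strands, families and tests were chosen with earlier results of these data known. Named were, for each comparison, the 5 strands and 5 pairs with the smallest unadjusted p; the 6 highest levels; the 6 highest passenger minus guide differences; and the highest strand of each family. This gave 34 strands, not all of which are given values. Strands without overlap were named after their values were seen. The replicate numbers were not taken to pair the mice. Sequences are from RefSeq, and no coordinates are given because the assay tables name no build. Alternatives are given in the closing section.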

Additional observations from a re-analysis of the deposited data

Results flagged for a closer look

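In 63 groups of 4 mice examined for the named strands and pairs, 4 held a value set apart from the other 3 by more than Dixon's critical value, and chance marks about 1 in 20 groups. The miR-15b* level was 0.33 in replicate 4 at 3 months, against -0.82 to -0.72 in the other 3 mice of that group. The miR-24-2* minus miR-24 difference was -8.96 in replicate 2 at 3 months, against -8.16 to -8.12. Replicate 3 at 3 months stood apart in 2 pairs, with a miR-183* minus miR-183 difference of 1.83 against 1.24 to 1.31 and a miR-872* minus miR-872 difference of 2.15 against 1.51 to 1.58.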

How the results depend on the processing

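Among the 5 strands and 5 pairs with the smallest unadjusted p of each comparison, no difference changed sign under any alternative run. Over all 62 pairs, centring each block by itself turned the sign in 8 at 3 months against control, in 1 at 10 months against control and in 8 of the comparison of both diet times, and taking off the shared control assays' shift turned 21, 8 and 19. At 3 months against control the count of passenger strands called was 0 to 1 with mice left out (1, let-7b*, without control replicate 4; it entered the test only through the controls, its 3-month values are all the entered limit, and leaving out the 1 undetected control leaves only detected ones, so this call supports nothing). At 10 months against control, where none was called, 1 was called with each block centred by itself (miR-31*), 1 with undetected wells missing, 1 with a limit of 32 cycles and 1 with a variance trend and robust variances (let-7d* in each), and 3 with only miRs detected in every mouse (let-7d*, miR-31* and miR-879*). Pairs called with mice left out numbered 0 to 3 at 3 months against control and 0 to 2 at 10 against 3 months. Both counts were highest without control replicate 4. Among the pairs called there, let-7b* and miR-200b* were at the entered limit in every 3-month mouse. The third pair called at 3 months against control was that of miR-186*, a strand detected in all 11 mice. Its adjusted p in that run was 0.0363 in limma. With mice left out, the median difference of the strands at 10 months against control ran from -0.27 to 0.12.

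The median difference of the strands at 3 months against control was -0.90 with the small-RNA control assays (all miRs -0.75), -0.55 with the deposited normalized values (all miRs -0.40) and -0.07 with each block centred by itself (all miRs -0.04). Between 10 and 3 months it was 0.99 (all miRs 0.89) and 0.72 (all miRs 0.63). With the shared control assays' shift taken off, chosen after seeing the data, the pair median was 0.33 in the first of the 3 comparisons (3 months with control) and -0.28 in the third (10 with 3 months). Centring on the array median shifted every difference by 0.24 at 10 months against control, which turned the median of the strands from -0.12 to 0.13 (all miRs 0.25), and by 0.28 at 10 against 3 months (strands 0.44, all miRs 0.34).

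With the replicate number as a block, 0 passenger strands were called in each of the 3 comparisons. Over 10 same-number pairs of mice the correlation of deviations ran from -0.13 to 0.30, over 0.1 in 5. Between mice of different numbers it ran from -0.26 to 0.22. Whether mice of the same number shared a run was not tested. The small groups and late cycles limit what weak strands can show.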
